A study of Brassica oleracea var. italica with 2 samples.

Results

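The miRNA families miR395, miR399 and miR827, which answer to sulfate and phosphate supply in plants, were taken from the table of known miRNAs of broccoli by name, as every record that carries the number of one of the 3 families. The table held 81 such records of 1400 in all, with 31 records for miR395, 42 for miR399 and 8 for miR827. Reads were given for 8 of these records (4, 3 and 1), of 169 records with reads in the whole table. The other 73 records were listed with a sequence and a position but with no count in either library, which is a missing value and not a count of 0. Small RNA had been sequenced from the shoot apex of 2 isogenic genotypes of Brassica oleracea var. italica, a heat-tolerant genotype (HT) with high curd-forming capacity and a heat-sensitive genotype (HS) with low capacity. Both were grown in long days of 18 h light and 6 h dark and were sampled at 22 °C, at an age of 54 days by the labels (the study's methods give other ages). The comparison of HT with HS asks which miRNAs differ between a genotype that forms heads at this temperature and one that does not. Each genotype gave 1 library, so every test below compares 2 libraries and not 2 genotypes, and no difference has a replicate check in these data. Apart from the sequencing, the study measured miR395a and miR827* by quantitative PCR. It reported miR395a as higher and miR827* as lower in the heat-tolerant line, and the same patterns in another heat-tolerant line. For the ATP sulfurylase gene APS1, a predicted target of miR395a, it mapped cleavage in the region that pairs with the miRNA. The APS1 transcript nevertheless rose modestly in the heat-tolerant line. The transcript of CAT2, which the study predicted as a miR827 target, was reported as increased where miR827* was lower. How many plants were pooled in a library is not given in the sources used here. The totals were 27069903 reads for HT and 26253036 reads for HS. The deposited counts of known miRNAs summed to 0.142% of the HT reads and 0.109% of the HS reads. These sums are far below the totals of known miRNA reads that the study gives for its libraries, and the sources used here do not explain the gap, so shares given below are of the deposited counts only. The table holds miRNAs only, so the labelled tissue could not be checked against marker genes.

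A plant miRNA is cut from one arm of a folded precursor as a duplex with the strand of the opposite arm, the miRNA*. The mature strand is loaded into an Argonaute protein and guides the cleavage of messenger RNAs that pair with it, with few mismatches tolerated at bases 2 to 8 from its 5′ end (the seed). In Arabidopsis, miR395 acts on ATP sulfurylases, which activate sulfate for assimilation, and on the low-affinity sulfate transporter SULTR2;1, and it accumulates when sulfate is short. The phosphate-starvation miRNA miR399 acts there on PHO2, a ubiquitin-conjugating enzyme that limits phosphate uptake and its transfer to the shoot. Arabidopsis miR827 acts on NLA, a ubiquitin ligase that limits phosphate transporters.

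The sequences of the mature miR395 records with reads are shown first, because 2 of them are identical and the third is a near copy. They are written as DNA from 5′ to 3′ as the table gives them, with the seed in capitals.
miR395b: cTGAAGTGtttggggggactc
miR395c: cTGAAGTGtttggggggactc
miR395a: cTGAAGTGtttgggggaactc
bdi-miR395d: aAGTGTTTggggggactctagg
Counted from 1 at the 5′ end, miR395a differed from miR395b by G17A alone, outside the seed. The record bdi-miR395d, kept here under its table name, began at base 4 of miR395b, shared 18 bases with it and ran 4 bases past its end, so its bases 2 to 8 are not the seed of the other records.

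The next sequences carry the phosphate families. The mature strands of miR399 and miR827 are set beside the miRNA* strands, again with bases 2 to 8 in capitals, since for miR827 only the miRNA* had a count.
miR399d: tGCCAAAGgagatttgccccg
miR399c*: gGGCATCTttctattggcacg
miR399e*: gGGCTTCTctctattggcagg
miR827*: tTTGTTGAttgacatctatgc
osa-miR827a: tTAGATGAccatcaacaaata
The seed TGAAGTG stood in 20 records of mature miR395 with 5 distinct sequences. The seed GCCAAAG stood in 34 records of mature miR399 with 9 distinct sequences, and TAGATGA in 5 records of mature miR827. Of the 8 member records with reads, miR395b alone was identical to the miRBase entry it was listed under. The sequences of miR395c, miR395a and miR399d were identical to other entries, namely ath-miR395b, ath-miR395a and ath-miR399d. The miR827* sequence differed from the entry aly-miR827* by A20G.

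The sulfate miRNA miR395 was higher in the HT library and the miR827* strand was lower in it. The 3 miR399 records with a count were near the limit of detection in both libraries. A record was called when a two-sided Fisher's exact test of its reads against the rest of the library gave an unadjusted p under 0.001 with a fold change over 2. Of the 8 records with reads, 4 were called, beside 12.4% of all 169 records with reads. The 3 called higher in HT were miR395b, miR395c and miR395a (background 8.28%). The 1 called lower in HT was miR827* (background 4.14%). The same 4 records passed a Benjamini-Hochberg adjusted p of 0.05 over the 169 records. The other 4 had at most 3 reads in each library. The records are few and 2 of them share a sequence, so these counts describe the families and carry no test of their own.

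The record miR395b had 1070 reads in the HT library and 178 in the HS library, which is 39.5 TPM (the count scaled to 1000000 reads of the library) against 6.78 TPM. Its fold change (HT/HS) was 5.83, with an exact 95% Clopper-Pearson interval of 4.97 to 6.87 (two-sided Fisher's exact p = 1.0e-149). By level it was the 12th of the 169 records in HT and the 25th in HS. For miR395c the HT library held 1025 reads and the HS library 151, or 37.9 TPM against 5.75 TPM, a fold change of 6.58 (5.54 to 7.86, exact p = 2.4e-154). These intervals, like all others given here, hold the error of counting alone. Reads amplified by PCR with no molecular identifier are not separate molecules, and 1 library shows no spread between plants.

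The third member, miR395a, was a minor sequence in both libraries. The HT library had 62 of its reads and the HS library 3, or 2.29 TPM against 0.114 TPM, and its fold change was 20.0 with an interval of 6.55 to 99.8 (exact p = 3.5e-15). Because the HS value stood at the floor of 3 reads used here as the limit of detection, the size of this ratio was known only within that wide interval. The shifted record bdi-miR395d had 3 reads in HT and 0 in HS (exact p = 0.250), and no fold change was taken, since both values were at or under the floor. The floor corresponds to 0.111 TPM in HT and 0.114 TPM in HS.

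**Figure D1:**
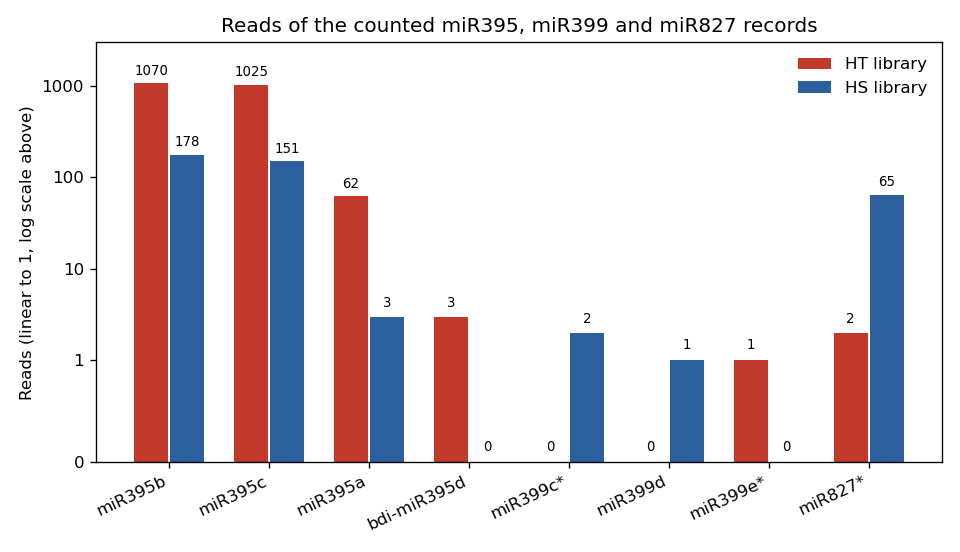
Reads of the 8 records with a count (vertical axis, linear to 1 and log above), with the HT library left of the HS library and the number of reads on each bar. The 3 mature miR395 records with at least 62 reads in HT had 3 to 178 in HS, miR827* had 2 in HT and 65 in HS, and the other 4 records had 0 to 3 in each.

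In the order of levels, miR395b and miR395c, which have one sequence, led in both libraries. An exact binomial test between them gave p = 0.336 in HT and 0.152 in HS. It takes their reads as separate, which they may not be, so no conclusion is drawn from it. The third place was held by miR395a in HT, with 2.29 TPM (exact 95% interval 1.76 to 2.94). In HS the third place was held by miR827*, with 2.48 TPM (1.91 to 3.16), below miR395c (exact binomial p = 4.6e-09) and above miR395a (3.6e-16). From the fourth place down in each library, neighbours of which at least one had reads gave an exact binomial p of 1.

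Summed over its 4 records, miR395 came to 2160 HT reads and 332 HS reads, or 79.8 TPM against 12.6 TPM, with a fold change of 6.31 (5.62 to 7.10). The 2 records with one sequence may hold the same reads, although their counts were not equal and the sources used here do not say how reads were shared out. With each sequence counted once, miR395 came to 1135 HT reads and 181 HS reads, a fold change of 6.08 (5.19 to 7.15, Fisher's exact p = 7.0e-163). The family took 5.62% of the deposited counts of known miRNAs in HT (95% Clopper-Pearson interval 5.39 to 5.86) and 1.16% in HS (1.04 to 1.29), a difference with Fisher's exact p = 4.9e-229. Counted once per sequence, these shares were 3.60% in HT and 0.758% in HS. Without miR395, the reads of the known miRNAs summed to a fold change of 1.25 (1.23 to 1.26). This sum hides larger differences of single records in both directions, among them the miR172 record csi-miR172b (16.3) and miR827* (0.0298).

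Whether the miR395 sequences differed in their fold change was asked in 3 pairs of records, each with Fisher's exact test (two-sided) of the reads of both records in both libraries, which does not depend on the library size. The fold change of miR395a was 3.44 times that of miR395b (95% interval of the odds ratio 1.103 to 17.3, exact p = 0.0256). Adjusted over the 3 pairs by Benjamini-Hochberg, this p was 0.0768. Against miR395c the ratio was 3.04 (0.974 to 15.3, exact p = 0.0522, adjusted 0.0783). Between miR395b and miR395c, which have one sequence, the ratio was 0.886 (0.696 to 1.13, exact p = 0.314). No pair passed 0.05 after this adjustment. The pairs are not separate questions, because miR395b and miR395c have the same sequence and may hold the same reads. The adjusted values therefore do not decide whether the sequences differ. With the reads of miR395b and miR395c summed, the ratio was 3.25 (Fisher's exact p = 0.0396, unadjusted). The HS library had only 3 reads of miR395a, so no conclusion is drawn. The intervals leave room for almost no difference (0.974 against miR395c, 1.103 against miR395b) and for a fold change of miR395a many times that of the major sequence.

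The positions of these records were given on version 1.1 of the Brassica rapa genome sequence, a relative of broccoli, and no gene annotation of that build was used, so the overlap with genes was not determined. The miR395b record lay at chrA07:7673056-7673076 on the plus strand, and miR395c at chrA08:17800064-17800084 on the plus strand. The counted miR395a record lay at chrA07:7666183-7666203 on the minus strand. Its sequence was listed in 11 records at 4 positions, of which the other 10 records had no count, so its 62 and 3 reads in HT and HS cannot be assigned to 1 position. The further positions of that sequence were chrA02:11553448-11553468, chrA07:18554034-18554054 and chrA07:18559933-18559953, all on the minus strand. Of the 18 positions of miR395, 8 lay on chromosome A07, in 2 groups. The first group had 3 positions with starts spread over 10.254 kb and holds miR395b and miR395a. The second group had 5 positions over 6.925 kb and holds bdi-miR395d, at chrA07:18556043-18556064.

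The phosphate miRNA miR399 had the most records, but only 3 had a count, and these held almost no reads. The other 39 records, 33 of them mature, had no count, so the level of the whole family is not known. The mature record miR399d had 0 reads in HT and 1 in HS (exact p = 0.492). The strand miR399c* had 0 reads in HT and 2 in HS (exact p = 0.242), and miR399e* had 1 read in HT and 0 in HS (exact p = 1). Together these were 1 read in HT and 3 in HS (exact p = 0.368). All values were at or under the floor of 3 reads, so no fold change was taken and a difference was not detectable at this depth. A count of 0 in HT lies under the floor of 0.111 TPM and has an exact two-sided 95% upper limit of 0.136 TPM. The miR399d sequence was listed in 6 records at 3 positions on chromosomes A03, A04 and A08, and 5 of these records had no count. Of the 42 records of the family, which stood at 21 positions, 19 lay on chromosome A09, the miR399c* and miR399e* records included.

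The only record of miR827 with a count was its miRNA*. The miR827* strand had 2 reads in HT and 65 in HS, or 0.0739 TPM against 2.48 TPM. Its fold change (HT/HS) was 0.0298 with an exact interval of 0.00354 to 0.112 (log2 fold change -5.07, two-sided Fisher's exact p = 7.1e-18). As counted, HS had 33.5 times the level of HT. The HT value lay under the HT floor of 0.111 TPM, so the size of this ratio was known only within that wide interval. The record stood at place 111 of 169 by level in HT and at place 45 in HS. Of the reads of all miRNA* records, miR827* took 0.0457% in HT (2 of 4381 reads, interval 0.00553 to 0.165) and 1.73% in HS (65 of 3759, interval 1.34 to 2.20), a difference with Fisher's exact p = 7.6e-20. The 6 mature miR827 records had no count in either library. The mature strand therefore gave no value to set beside its miRNA*, and the result for miR827* is not a result for the strand that acts on NLA.

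Records of a mature strand and a miRNA* that lay within 300 nt of each other on one strand gave 8 arm pairs. In all 8 the miRNA* lay on the 5′ side, with 34 to 144 nt between the arms. In 4 pairs 1 arm had a count, and in 0 pairs both had. The miR395c record stood 58 nt past aly-miR395h*, and the 2 strands formed a duplex of 17 base pairs with a computed energy of -24.2 kcal/mol. The miR827* record, at chrA09:29434355-29434375 on the minus strand, paired with osa-miR827a over 16 bases with 34 nt between them. This duplex had an energy of -15.9 kcal/mol, the weakest of the 8, beside -29.2 kcal/mol for the strongest, ath-miR399d with aly-miR399d*. The miR399c* and miR399e* records paired with bdi-miR399 (17 base pairs, -26.8 kcal/mol) and ath-miR399b (16 base pairs, -29.0 kcal/mol). Of the records without a count in these pairs, ath-miR395a has the sequence of miR395a, and ath-miR399d and vvi-miR399g have that of miR399d. No pair gave a ratio of its arms in either library.

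**Figure D2:**
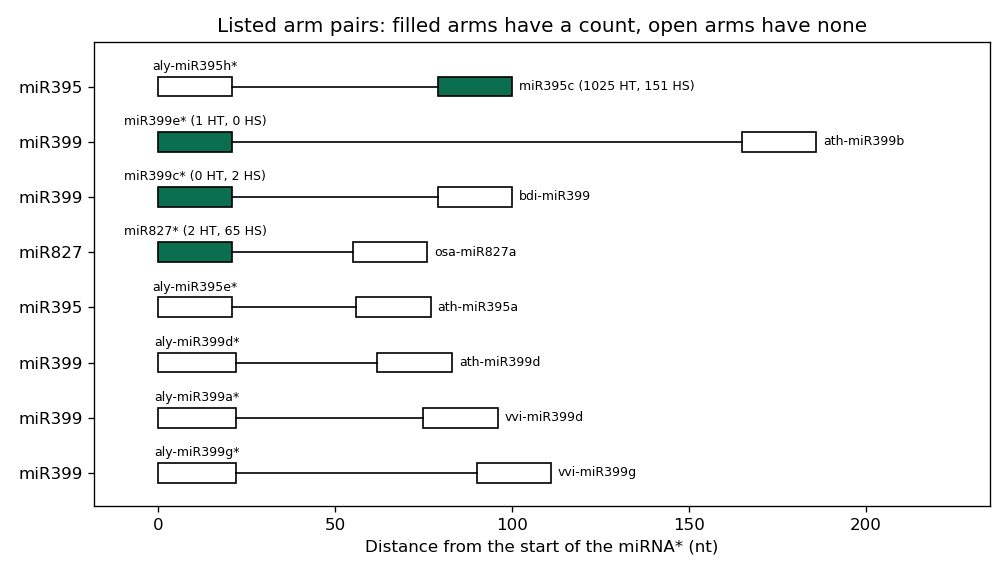
The 8 pairs of listed arms, drawn to scale by distance in nt from the start of the miRNA* (left box) to the mature strand (right box), with reads in the HT and HS libraries beside each arm that has a count. Filled boxes are records with a count and open boxes records without, and 4 pairs have 1 filled arm and none has both.

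Set against all known miRNAs with at least 50 reads in both libraries together, 69 records, the called members stood at or near the ends of the range of fold changes. The log2 fold change (HT/HS) was the highest of the 69 for miR395a (4.33), the third for miR395c (2.72), the fourth for miR395b (2.54) and the lowest for miR827* (-5.07), with a median of 0.37 over the 69 records. The second place was held by a miR172 record, csi-miR172b, with a fold change of 16.3 (11.6 to 23.5), inside the interval of miR395a. This order is a description of 2 libraries and adds no support to the calls, which were made with the same fold changes. The records miR395a and miR827* reached 50 reads through 1 library each, with 3 reads of miR395a in HS and 2 of miR827* in HT. Of all records with a count, 14 were called higher in HT and 7 lower. That split was 9 and 9 when the libraries were scaled to the sum of known miRNA reads, and 10 and 9 when they were scaled to the median ratio of the records, which moved every log2 fold change down by 0.32. The 4 called members kept their call and direction under these scalings and under a trimmed mean of log2 ratios, with fold changes of 15.4 to 20.0 for miR395a, 4.47 to 5.83 for miR395b, 5.05 to 6.58 for miR395c and 0.0229 to 0.0298 for miR827*.

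**Figure D3:**
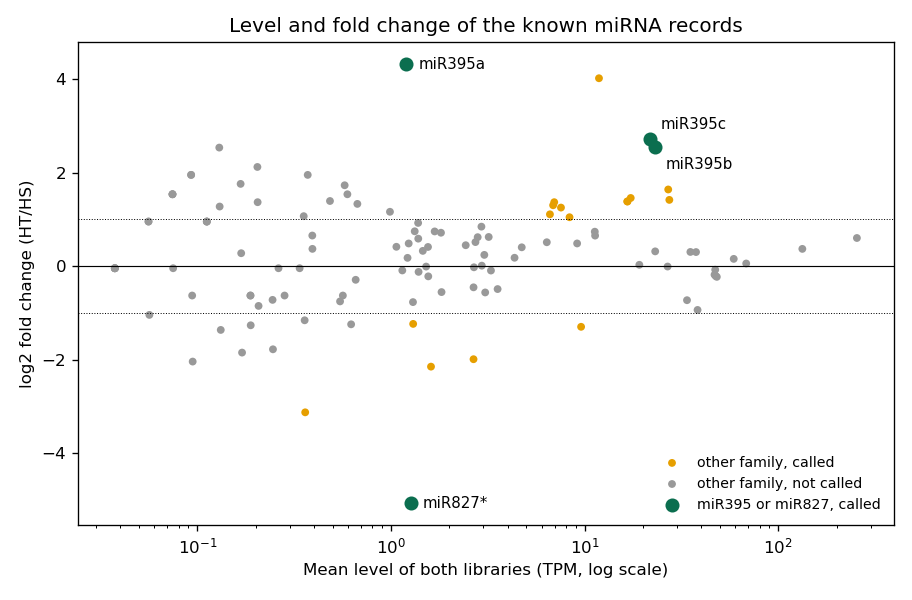
Mean level of both libraries (horizontal axis, TPM, log scale) against the log2 fold change (HT/HS) of the 119 known miRNA records with reads in both libraries, with dotted lines at a fold change of 2 in either direction. The miR395 records lie at 4.33, 2.72 and 2.54 and miR827* at -5.07, and the 50 records with 0 reads in one library, 4 of the members and 1 called record of another family among them, are not drawn.

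**Figure D4:**
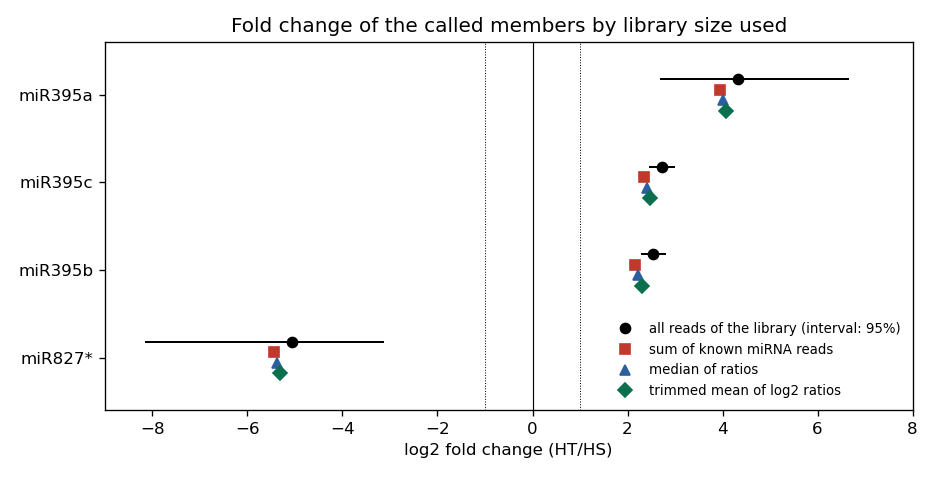
Log2 fold change (HT/HS) of the 4 called members under 4 ways to set the library size, with the exact 95% interval of the value scaled to all reads of the library. The 3 miR395 records stay above the dotted line at a fold change of 2 and miR827* stays below the dotted line on the other side under all 4.

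The records of other families whose fold change lay nearest to that of miR395b were miR169m (fold change 3.12), miR156b (2.75) and miR408a* (2.68), chosen by log2 fold change among records with at least 50 reads. Their distance from miR395b was 0.90 to 1.12 on the log2 scale. Nearest to miR827* were miR400 (fold change 0.225), miR398b (0.251) and miR398b* (0.406), at 2.91 to 3.77 on the log2 scale. This likeness is over 1 ratio of 2 libraries and says nothing of shared control.

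Other families tied to nutrient supply were counted from a list: the phosphate miRNAs miR778 and miR2111, miR169, miR393, miR826 and miR5090 for nitrogen, and the copper miRNAs miR397, miR398, miR408 and miR857. These families had 25 records with reads, of which 3 were called higher in HT and 2 lower, that is 20% beside 12.4% of all records with reads. Higher were miR169m (1108 HT reads, 344 HS reads), miR169f (305 HT reads, 143 HS reads, fold change 2.07) and miR408a* (1079 HT reads, 391 HS reads). In Arabidopsis miR169 acts on subunits of the transcription factor NF-Y, and miR408 on copper proteins such as plantacyanin. Lower were miR398b (29 HT reads, 112 HS reads) and miR398b* (150 HT reads, 358 HS reads). Arabidopsis miR398 acts on copper/zinc superoxide dismutases. Nearly all miR408 reads were of miRNA* strands. Its mature record smo-miR408 had 3 reads in HT against 7 in HS (exact p = 0.220), so the call of miR408a* is no result for the mature strand. Scaled to the sum of known miRNA reads or to the median ratio, 2 records were called higher (miR169f was lost) and 3 lower (the miR397 record bna-miR397a was gained). With the trimmed mean of log2 ratios, 2 were called higher and 2 lower, without bna-miR397a. That is 16% of the 25 records beside 11.8% of all records with reads. Of the other phosphate families, miR2111 had 1 read in HT and 0 in HS and miR778 had no count. The miR393 records summed to 19 HT reads and 25 HS reads with none called, miR857 had no count, and miR826 and miR5090 had no record.

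The tables of newly identified miRNA candidates were searched for further members. None of their 54 sequences matched a member record with fewer than 6 mismatches, over an overlap of at least 16 nt, and 0 of their positions lay within 5000 nt of a member.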

How the data were processed

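Size-selected small RNA from 1 HT and 1 HS library was sequenced by the authors on an Illumina HiSeq2000. The authors kept reads of 16 to 31 nt and removed reads that matched other non-coding RNAs. They matched the rest by BLASTN to plant miRNAs of miRBase (release 18 in the table header, 19 in the authors' description and 21 in the methods). The methods state fewer than 2 mismatches, but records with 2 are listed, such as miR395a against its entry mtr-miR395h (A1C and T21C). The deposited counts are whole reads per record and library, not normalized. The deposited TPM values are counts scaled to 1000000 reads of the library, and were used only to recover the library totals. Count columns were recorded with the unit other, because their headers hold line breaks. The deposited log2 fold changes, p-values and q-values are the authors' own comparison and were not used.

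Reads were tested by Fisher's exact test, two-sided (SciPy 1.17.1, Python 3.11.15) over all 169 records with a count, with exact Clopper-Pearson intervals at 95%. The test was checked on simulated reads with counting error alone, which says nothing of the spread between libraries or plants. Arms within 300 nt were paired with ViennaRNA 2.7.2 at 37 °C. Positions were given 1-based. Named were all counted members, the 3 records of other families with at least 50 reads nearest by log2 fold change to miR395b and to miR827*, and the called records of the nutrient list. The records csi-miR172b, smo-miR408 and bna-miR397a were named after their values were seen. Members, lists and tests were chosen with earlier results of these data known. Alternatives were other library sizes, thresholds, tests, a pseudocount of 1 read, mature records alone and each sequence counted once. The members, the nearest records and the called records of the list have the study's names where reads were identical, and all other records keep their table names.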

Additional observations from a re-analysis of the deposited data

How the results depend on the processing

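The count of 4 called members was the same in 9 of 10 alternatives and was 3 with each sequence counted once, since miR395b and miR395c then count as 1. The fold changes of miR395, of miR827 and of the 4 called members kept their direction and their side of the threshold under every alternative run, with 4.84 to 6.31 for miR395 and 0.0229 to 0.0441 for miR827. The few reads of miR399 passed no test under any alternative run and give no direction. The difference between miR395a and miR395b (ratio 3.44) had an unadjusted exact p of 0.0256, which was 0.0768 adjusted over the 3 pairs. That adjustment does not decide the question, since miR395b and miR395c have the same sequence and the pairs are not separate. The unadjusted exact p was 0.0396 with the reads of miR395b and miR395c summed (ratio 3.25) and 0.0522 with miR395c alone (3.04). The cause was not tested. The other library sizes for the nutrient list were chosen after seeing the data. For miR827, mature records alone gave no value, since none has a count. No paired analysis was possible because each genotype has 1 library. Leaving out a replicate was not possible for the same reason. The depth limits the counted miR399 records and bdi-miR395d, with at most 3 reads a library, and the HS level of miR395a and the HT level of miR827*.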
